A study of Mus musculus with 9 samples.

Results

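Expression of 10 enzymes that make serine, asparagine, proline and related metabolites was followed in mouse embryonic stem cells (ESCs) after induction of a forced E2A homodimer. The enzymes are encoded by Phgdh, Psat1, Psph, Shmt2, Mthfd2, Asns, Aldh18a1, Pycr1, Cth and Gpt2. They were chosen by gene name with earlier results of these libraries known, so their differences from 0 h are given as a description. Where they are counted under the call rule used for all genes, the count describes them and supports nothing. They are 10 of the 47729 genes with an expression value, and all 10 were among the 17951 genes with a mean of at least 0.1 FPKM (fragments per kilobase of transcript, scaled to the reads mapped in the library) that entered the comparisons.

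RNA was sequenced from ESCs that carried FLAG-tagged E47, a product of the E2A gene Tcf3, joined to another E47 by a flexible linker. The transgene was under a tetracycline-response element at a cassette exchange locus upstream of Hprt, and its expression was induced with doxycycline (dox) at 1 µg/ml in LIF/serum culture. The 3 groups were untreated cells (0 h) and cells after 18 h and 24 h of dox, each with 3 biological replicates numbered 1, 2 and 3, which gave 9 libraries that all carried the transgene. The question put by this design was which genes respond to E2A homodimers under conditions that favour self-renewal. The titles and treatment entries of the samples gave 18 h and 24 h, whereas the treatment protocol text spoke of 24 h and 48 h. The number of clones behind the line is not given in the sources used here. Dox-treated cells that lack the transgene were not analysed here, and no library came from untreated cells at 18 h or 24 h. Effects of dox, of the transgene and of time in culture therefore cannot be told apart.

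Serine is made from a glycolytic intermediate by Phgdh, Psat1 and Psph in turn, and Shmt2 then passes one of its carbons to folate inside mitochondria, where Mthfd2 oxidises the folate-bound unit. Asns makes asparagine from aspartate with glutamine as the nitrogen donor, Aldh18a1 and Pycr1 catalyse the first and last steps of proline synthesis, Cth releases cysteine from cystathionine, and Gpt2 moves amino groups between alanine and glutamate in mitochondria. Many of these genes are known targets of Atf4, a transcription factor whose translation increases when amino acids run short or the endoplasmic reticulum is stressed, and which binds sites built around the letters TGATGNAA. E proteins such as E2A bind the E-box, CANNTG.

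Promoter sequences, from 250 bases before to 50 bases after the annotated start, were found in the RefSeq table of GRCm38.p6 for 9 of the 10 genes (Cth had no entry, and Psat1 had 2). Both strands were searched. The core TGATGNAA was present in 2 of the 9 genes, Asns and Pycr1, and in 3.97% of all 32851 promoters of this length. In Asns the match TGATGAAA began 23 bases before the start and in Pycr1 the match TGATGCAA began 103 bases before it, both on the strand of the gene. The E-box CANNTG was present in 5 of the 9 (Psph, Mthfd2, Asns, Aldh18a1 and Pycr1) and in 72.3% of all promoters. A form of it that E proteins bind, CAGGTG, was in none of the 9 and in 20.2% of all promoters. The E-boxes of Pycr1 were CACTTG and CAGCTG, which began 222 and 83 bases before the start. The share of all promoters with CAGCTG was not counted. In Asns the E-box CACATG shares bases with TGATGAAA. Such matches are descriptions of these 300 bases, not binding sites, and no match says only that the letters are not in this window. Promoters of 4 genes are shown, the 2 that hold TGATGNAA, a promoter with E-boxes and that of the gene with the lowest log2 fold-changes, read along the strand of the gene. Asns (chr6:7693160-7693459, minus strand) and Pycr1 (chr11:120643699-120643998, minus strand) hold TGATGNAA, in capitals. Aldh18a1 (chr19:40588414-40588713, minus strand) holds 2 E-boxes, in capitals. Gpt2 (chr8:85492326-85492625, plus strand) held none of the motifs searched and has no capitals.
Asns: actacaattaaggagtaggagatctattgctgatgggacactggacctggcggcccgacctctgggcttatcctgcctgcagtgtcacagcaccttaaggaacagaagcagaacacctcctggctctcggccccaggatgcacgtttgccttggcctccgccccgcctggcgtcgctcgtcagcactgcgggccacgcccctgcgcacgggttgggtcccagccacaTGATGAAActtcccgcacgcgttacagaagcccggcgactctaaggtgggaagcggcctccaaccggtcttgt
Pycr1: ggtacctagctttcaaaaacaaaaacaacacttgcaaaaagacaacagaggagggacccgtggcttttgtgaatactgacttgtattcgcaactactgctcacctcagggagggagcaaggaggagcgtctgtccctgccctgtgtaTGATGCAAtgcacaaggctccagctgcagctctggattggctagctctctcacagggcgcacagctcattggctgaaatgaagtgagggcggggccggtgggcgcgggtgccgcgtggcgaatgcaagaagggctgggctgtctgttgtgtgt
Aldh18a1: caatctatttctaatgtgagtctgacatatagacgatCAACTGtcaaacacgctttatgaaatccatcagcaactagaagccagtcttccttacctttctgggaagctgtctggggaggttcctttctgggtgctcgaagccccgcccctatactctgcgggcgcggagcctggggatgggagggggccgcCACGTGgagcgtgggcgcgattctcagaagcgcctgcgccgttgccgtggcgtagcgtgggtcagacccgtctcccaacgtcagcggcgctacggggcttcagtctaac
Gpt2: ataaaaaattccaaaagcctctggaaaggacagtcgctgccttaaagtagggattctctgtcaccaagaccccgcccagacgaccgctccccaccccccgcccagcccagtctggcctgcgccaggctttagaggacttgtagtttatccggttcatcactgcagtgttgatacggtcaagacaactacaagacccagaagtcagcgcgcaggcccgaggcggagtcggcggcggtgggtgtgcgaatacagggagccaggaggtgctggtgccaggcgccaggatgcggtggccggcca

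The reads on the 19210 genes of the authors' filtered table numbered 22028363 to 26471569 per library. Expression of Tcf3, on which reads of the transgene can be counted, was 39.1±1.80 FPKM (mean±s.d., n=3 throughout) at 0 h, 110.1±5.52 after 18 h and 102±7.55 after 24 h. All 10 listed markers of pluripotent cells were above 1 FPKM in at least 1 library, with a summed level of 1449 to 2132 FPKM at 0 h, 1142 to 1778 after 18 h and 1073 to 1723 after 24 h. Of 10 fibroblast markers, 4 stayed below 1 FPKM in every library, and the sum was 8.59 to 17.2 FPKM at 0 h, 8.91 to 14.0 after 18 h and 9.07 to 14.6 after 24 h. The 6 markers of early neural cells summed to 0.892 to 1.39 FPKM at 0 h, 6.59 to 6.69 after 18 h and 9.80 to 11.8 after 24 h, and the 5 of trophoblast to 2.64 to 3.37, 11.3 to 14.2 and 16.0 to 16.9. In both of these lists, 2 genes were below 1 FPKM in all libraries. The 6 of primitive endoderm, 5 of them below 1 FPKM throughout, summed to 4.44 to 5.35, 4.07 to 4.78 and 5.07 to 5.92. The neural and trophoblast sums moved with time of dox, and their part in the results below was not tested. Lmx1b, Neurog3, Sox1 and Foxd4 carried the neural sum, and Hand1 (1.22±0.385 FPKM at 0 h, 11.6±0.763 after 24 h) and Cdx2 (0.476±0.218 and 3.44±0.684) the trophoblast sum, in which Gata3, Ascl2 and Elf5 stayed at or below 1.03 FPKM on average. The pluripotency sum, in which Dppa5a was the most abundant gene, held opposite movements, with Tdgf1 at 130.6±12.1 FPKM at 0 h and 47.5±4.38 after 24 h and Nanog at 40.6±5.51 and 73.4±8.12. In these bulk libraries, fewer cells that express a gene and less of its RNA per cell cannot be told apart.

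Replicate 2 at 0 h stood apart from the other 0 h libraries for these genes. It had the lowest 0 h value for all 10, whereas it was lowest for 31.7% of the 11893 genes with a mean of at least 1 FPKM. Its FPKM was 36.9% (Pycr1) to 70.7% (Phgdh) of the mean of replicates 1 and 3, with a median of 51.5% over the 10 genes and 100.1% over all 11893. At or below the 70.7% of Phgdh were 4.57% of the 11893 genes. The summed FPKM of the 10 genes was 749.6, 440.2 and 853.4 in 0 h replicates 1, 2 and 3, 298.6, 275.2 and 288.0 after 18 h, and 284.8, 264.5 and 254.3 after 24 h. Even in 0 h replicate 2 the sum was thus above that of each dox-treated library, and each gene stood at 1.12 (Pycr1) to 1.99 (Gpt2) times its mean over the 6 treated libraries. Fold-changes of the 10 genes are therefore given with and without this library. It was singled out after its values were seen, and leaving it out gave the lowest log2 fold-change for each gene. Leaving out 0 h replicate 1 or 3 gave values smaller in size than with all libraries, except for Cth without replicate 3.

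A gene was called when limma, fitted to log2(FPKM+0.1) across all genes, gave a p of at most 0.05 after Benjamini–Hochberg adjustment together with a log2 fold-change of at least 1 in size. By this rule 8 of the 10 were called lower after 18 h, beside 0.724% of the 17951 genes called lower and 1.33% called higher, and 8 of the 10 after 24 h, beside 0.836% called lower and 2.07% called higher. With the adjusted p alone, 9 were lower at each time, beside 3.72% of genes after 18 h and 5.11% after 24 h. In 9 of the 10, each 18 h library was below each 0 h library (13.7% of all genes), and the same was true after 24 h (14.6%). The exception was Pycr1. Since the genes were chosen with these contrasts known, no p is given for them and nothing is read from these shares or calls. The median log2 fold-change of the 10 was -1.20 after 18 h and -1.34 after 24 h, against -0.00303 and 0.00403 over all genes tested.

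**Figure D1:**
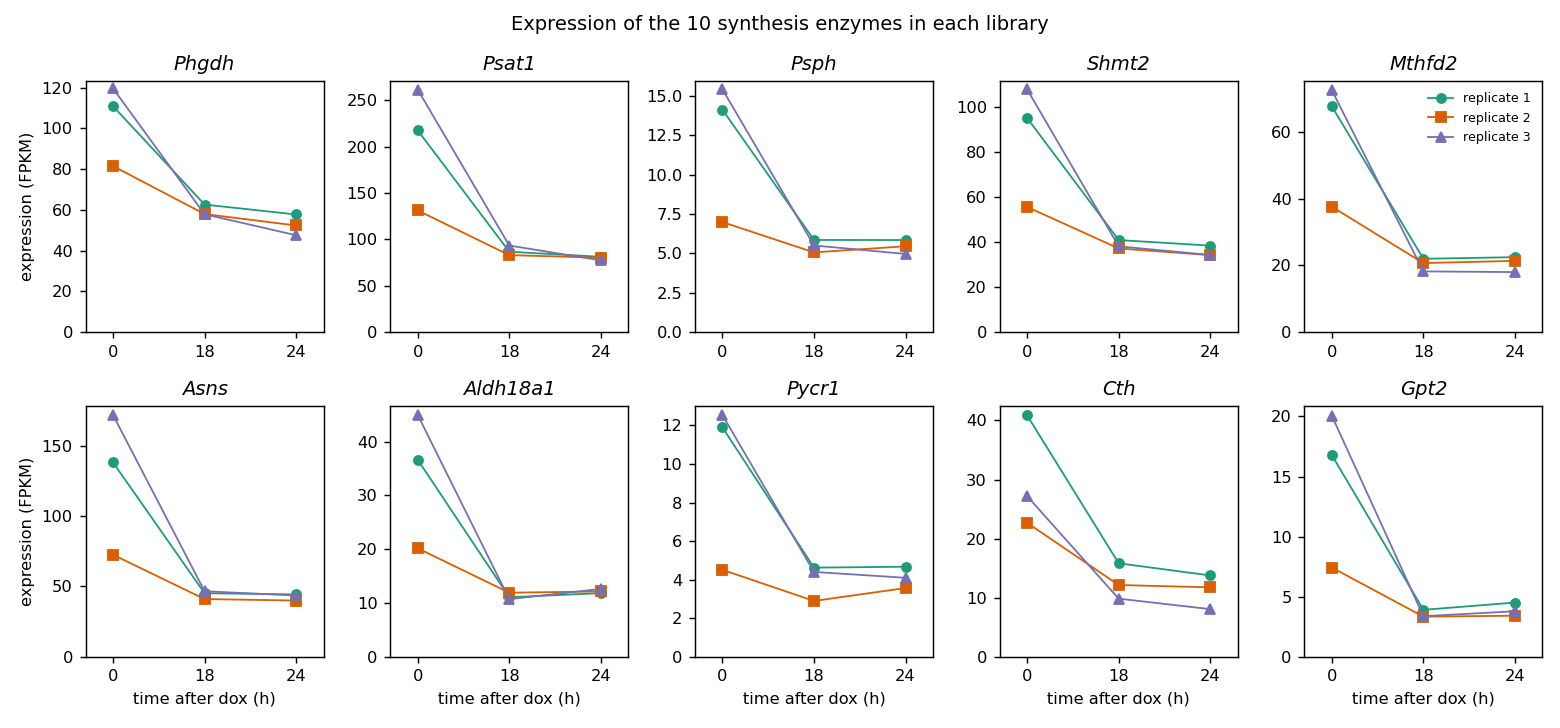
Expression of each enzyme in FPKM (vertical axes, each starting at 0) by time after dox in hours, with 1 line per replicate number. At 0 h, replicate 2 is the lowest of the 3 libraries in every panel. The treated libraries lie closer together in FPKM than the 0 h libraries, and below all of them except for Pycr1.

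Of the serine synthesis enzymes, Phgdh (ENSMUSG00000053398, chr3:98313170-98339990, minus strand of GRCm38) oxidises 3-phosphoglycerate in the first step. Its expression was 110.9, 81.5 and 119.7 FPKM in 0 h replicates 1, 2 and 3, 62.6, 58.0 and 57.9 after 18 h, and 57.8, 52.4 and 47.6 after 24 h. All treated libraries were below all 0 h libraries. The log2 fold-change was -0.79 (s.e. 0.132, the same at both times here and below) after 18 h and -0.97 after 24 h, the smallest in size of the 10 at both times, so that Phgdh passed the adjusted p but not the minimum fold-change. Without 0 h replicate 2 it was -0.95 after 18 h and -1.14 after 24 h, where it then passed both. The values were -0.73 and -0.91 without 0 h replicate 1, and -0.68 and -0.86 without 0 h replicate 3.

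Psat1 (ENSMUSG00000024640, chr19:15904678-15947337, minus strand), the aminotransferase of the second step, was the most abundant of the 10 at each time. Its FPKM was 217.6, 131.3 and 261.6 at 0 h, 86.7, 83.0 and 93.4 after 18 h, and 81.3, 80.3 and 77.4 after 24 h. The groups treated with dox did not overlap with 0 h. Expression was 43.1% of the 0 h mean after 18 h and 39.1% after 24 h, with log2 fold-changes of -1.16 (s.e. 0.203) and -1.29, or -1.44 and -1.58 without 0 h replicate 2.

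Psph (ENSMUSG00000029446, chr5:129765558-129787449, minus strand), the phosphatase that completes serine, was expressed at a much lower level, 14.1, 6.997 and 15.4 FPKM at 0 h. At 18 h it had 5.86, 5.07 and 5.51 FPKM, and after 24 h 5.85, 5.46 and 4.97. All treated libraries were again below all 0 h libraries, by a small margin from 0 h replicate 2. The log2 fold-changes of -1.06 (s.e. 0.249) after 18 h and -1.08 after 24 h lay just past the minimum. Without 0 h replicate 2 they were -1.42 and -1.43, and the call was lost in 11 of 22 alternative settings after 18 h and in 8 after 24 h. Psph shares its locus with the oppositely transcribed Cct6a, and the handling of strand in the counting is not given in the sources used here, so its values are uncertain.

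In the mitochondrial folate pathway, Shmt2 (ENSMUSG00000025403, chr10:127517123-127522444, minus strand), the serine hydroxymethyltransferase of mitochondria, had 95.1, 55.6 and 107.8 FPKM at 0 h. It had 40.9, 37.2 and 38.1 FPKM after 18 h and 38.4, 34.2 and 34.3 after 24 h, without overlap with 0 h. The log2 fold-change of Shmt2 was -1.10 (s.e. 0.202) after 18 h and -1.22 after 24 h, or -1.39 and -1.51 without 0 h replicate 2. Shmt2 was also the gene whose profile over the 9 libraries lay closest to the mean profile of the 10.

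Mthfd2 (ENSMUSG00000005667, chr6:83305691-83325908, minus strand), the mitochondrial methylenetetrahydrofolate dehydrogenase, had 67.6, 37.6 and 72.4 FPKM at 0 h, 21.96, 20.7 and 18.2 after 18 h, and 22.4, 21.3 and 18.0 after 24 h. Expression was thus 34.2% of the 0 h mean after 18 h and 34.8% after 24 h, and no treated library reached a 0 h library. The log2 fold-change was -1.49 (s.e. 0.218) after 18 h and -1.47 after 24 h, and -1.79 and -1.77 without 0 h replicate 2.

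Asns (ENSMUSG00000029752, chr6:7675169-7693254, minus strand), asparagine synthetase, followed Psat1 in mean abundance at 0 h with 138.1, 72.5 and 171.7 FPKM. It had 45.2, 41.0 and 46.6 FPKM after 18 h and 44.3, 39.9 and 43.5 after 24 h. The lowest 0 h library was well above the highest treated library. Its log2 fold-change was -1.44 (s.e. 0.254) after 18 h and -1.49 after 24 h, and -1.80 and -1.85 without 0 h replicate 2. No other annotated gene overlaps Asns, whose promoter holds the TGATGAAA match shown above.

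Of the proline enzymes, Aldh18a1 (ENSMUSG00000025007, chr19:40550257-40588463, minus strand) makes the precursor of proline and ornithine from glutamate. It had 36.6, 20.2 and 44.96 FPKM at 0 h, 11.1, 11.9 and 10.7 after 18 h, and 11.8, 12.1 and 12.6 after 24 h. The treated libraries were all below the 0 h libraries and spread little, with s.d. of 0.617 FPKM after 18 h and 0.395 after 24 h against 12.6 at 0 h. The log2 fold-change was -1.51 (s.e. 0.235) after 18 h and -1.39 after 24 h, or -1.85 and -1.73 without 0 h replicate 2.

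Pycr1 (ENSMUSG00000025140, chr11:120635712-120643769, minus strand), a mitochondrial reductase that forms proline, was the only one of the 10 with overlapping groups. Its FPKM was 11.9, 4.51 and 12.5 at 0 h, 4.62, 2.90 and 4.40 after 18 h, and 4.67, 3.57 and 4.10 after 24 h. Replicate 1 after 18 h and after 24 h exceeded 0 h replicate 2, and the other treated libraries were below all 0 h libraries. The log2 fold-change was -1.15 (s.e. 0.353) after 18 h and -1.08 after 24 h and did not pass the adjusted p by limma. By limma Pycr1 was also not called without 0 h replicate 1 (-0.93 and -0.87) or without 0 h replicate 3 (-0.90 and -0.83). It was called at both times on all 9 libraries by edgeR (-1.28 and -1.24) and DESeq2 (-1.28 and -1.24), and by limma without 0 h replicate 2 (-1.62 and -1.56) or with a block for the replicate number. In the blocked fit each treated library is set against the 0 h library of its own number. These differences were -1.35, -0.62 and -1.49 in replicates 1, 2 and 3 after 18 h, and -1.33, -0.33 and -1.59 after 24 h.

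Cth (ENSMUSG00000028179, chr3:157894248-157925077, minus strand), cystathionine gamma-lyase, had 40.9, 22.7 and 27.2 FPKM at 0 h, 15.8, 12.1 and 9.83 after 18 h, and 13.8, 11.8 and 8.06 after 24 h. The groups did not overlap. Its log2 fold-change was -1.24 (s.e. 0.262) after 18 h and -1.42 after 24 h, or -1.42 and -1.60 without 0 h replicate 2. Cth differed from the other 9 in that its highest 0 h library was replicate 1 rather than replicate 3. Its coefficient of variation was 24.0% after 18 h, near the 23.7% of Pycr1, and 25.8% after 24 h.

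Gpt2 (ENSMUSG00000031700, chr8:85492576-85527560, plus strand), the mitochondrial alanine aminotransferase, had 16.8, 7.43 and 20.1 FPKM at 0 h, 3.91, 3.34 and 3.38 after 18 h, and 4.51, 3.42 and 3.79 after 24 h. Expression after 18 h was 24.0% of the 0 h mean and after 24 h 26.5%, with no overlap between groups. Its log2 fold-changes of -1.91 (s.e. 0.307) after 18 h and -1.78 after 24 h were the lowest of the 10 at both times, and without 0 h replicate 2 they were -2.34 and -2.21. Between 461 and 647 reads supported each treated library and between 1006 and 2461 each 0 h library.

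**Figure D2:**
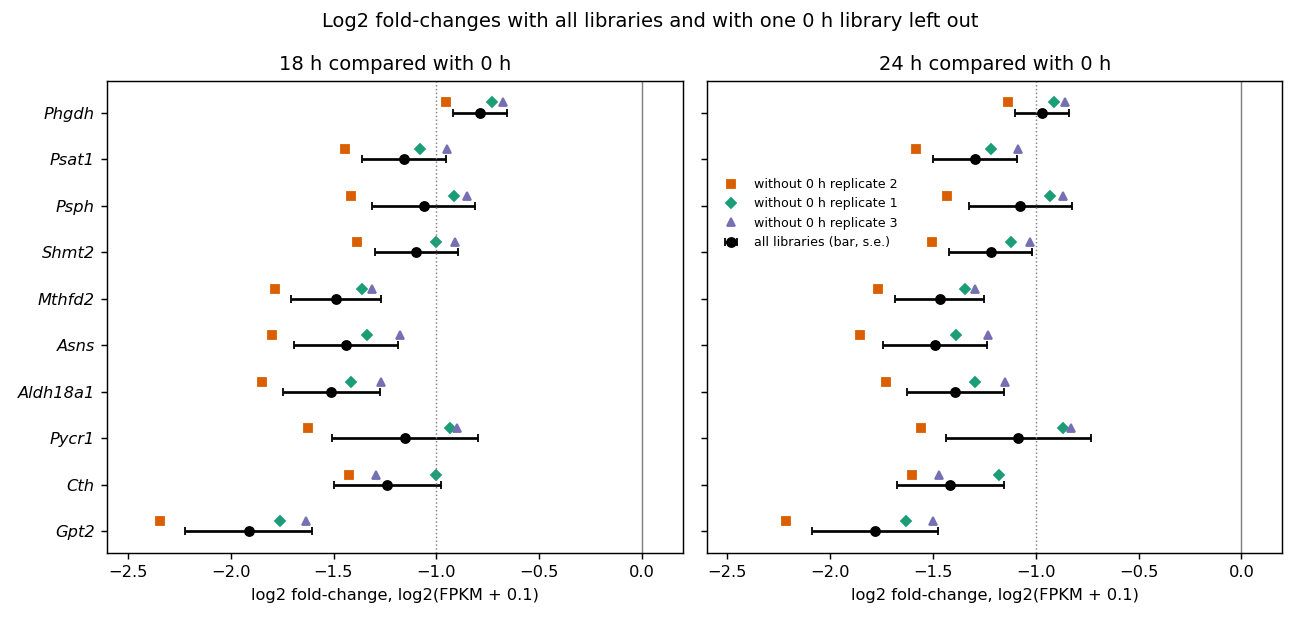
Log2 fold-changes of the 10 enzymes after 18 h (left) and 24 h (right) compared with 0 h on the log2(FPKM+0.1) scale, with black points for all libraries (bars, s.e.) and coloured points for fits without one 0 h library; the dotted line marks the minimum of -1. Every point is below 0, and leaving out 0 h replicate 2 gives the lowest value for each enzyme.

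Across 22 alternative ways of processing or of leaving out a library, all 440 log2 fold-changes of these genes against 0 h were below 0, from -2.34 to -0.68. Many of the 440 repeat the main value. In limma the filter, the intensity trend and the replicate block do not change the log2 fold-change itself. Nor do libraries of the dox time that is not compared. Mthfd2, Aldh18a1 and Gpt2 were called at both times in all 22. Their log2 fold-changes smallest in size were -1.31, -1.27 and -1.63 after 18 h and -1.29, -1.15 and -1.50 after 24 h. The number called was less stable. At 18 h it was 8 with all libraries, 5 without 0 h replicate 1, 4 without 0 h replicate 3, 3 without 18 h replicate 2 and 5 without 18 h replicate 3. Over all 17951 genes, the numbers called lower in the same fits were 130, 65, 87, 66 and 65. Psat1, Psph, Shmt2, Asns and Cth each lost the call in at least 2 of the 22 alternatives after 18 h, where Psat1 ranged from -1.44 to -0.95, Shmt2 from -1.39 to -0.91, Asns from -1.80 to -1.18 and Cth from -1.42 to -0.9998. After 24 h Psph alone of the 8 lost it, with a range of -1.43 to -0.87. The number called was 7 to 10 when a library was left out, beside 79 to 185 of all genes called lower.

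The 2 treated time points were compared with each other in the same fit, which shares these libraries with the contrasts above. By limma 0 of the 10 were called between them, 0 had an unadjusted p under 0.05 and 0 were called by edgeR or DESeq2, beside 0.0223% of all genes (4 of 17951 by limma, 1004 at an unadjusted p under 0.05, 0 by edgeR and 2 by DESeq2). Between 18 h and 24 h the log2 fold-changes of the 10 ran from -0.18 (Phgdh) to 0.13 (Gpt2), with adjusted p of 0.961 to 1.00 by limma, and of 0.581 to 0.991 with the replicate block. The s.e. of these values ran from 0.132 (Phgdh) to 0.353 (Pycr1).

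The spread between replicates of these genes was wider at 0 h than after dox. Their median coefficient of variation was 34.9% at 0 h, 6.88% after 18 h and 8.94% after 24 h, against 9.50%, 7.48% and 7.65% over the 11893 genes. In all but Cth the width at 0 h was smallest without replicate 2, and in Cth without replicate 1 (12.8%). Without replicate 2 the median of the 10 at 0 h was 10.7%, from 3.70% (Pycr1) to 28.4% (Cth), a value chosen after seeing the data, whereas without replicate 1 it was 50.1% and without replicate 3 40.7%. At 0 h the range of the replicates joined most neighbours in the order of abundance. After Psat1 (204 FPKM on average), the genes Asns (127), Phgdh (104), Shmt2 (86.2), Mthfd2 (59.2), Aldh18a1 (33.9) and Cth (30.2) each overlapped with the gene before. Gpt2 (14.8) did not overlap with Cth, whereas Psph (12.2) overlapped with Gpt2 and Pycr1 (9.65) with Psph. FPKM is scaled to gene length, so these levels can be set side by side. At 18 h and at 24 h only Aldh18a1 and Cth overlapped, and Gpt2 and Pycr1. Phgdh stood above Asns after dox, with 59.5±2.71 against 44.2±2.89 FPKM after 18 h, while at 0 h their ranges overlapped. Gpt2 went from 14.8±6.55 FPKM, above the means of Psph and Pycr1, to 3.54±0.316 after 18 h and 3.91±0.557 after 24 h, below both. Replicate 1 was the highest library for 7 of the 10 genes after 18 h and for 9 after 24 h, although replicate 3 was the highest for 9 at 0 h.

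Isozymes and paralogs of these enzymes, and Cbs, which acts before Cth, were described in the same libraries. Since the 10 enzymes were chosen with their differences from 0 h known, nothing is read from how they compare with these genes. Shmt1, the cytosolic counterpart of Shmt2, had log2 fold-changes of -0.20 (adjusted p = 0.224 by limma) after 18 h and -0.34 (adjusted p = 0.046) after 24 h, below the minimum fold-change. Mthfd1, the cytosolic folate enzyme, had 0.15 and 0.01, and Mthfd2l, a close paralog of Mthfd2, -0.19 and -0.16, with adjusted p of 0.151 to 0.945. Mthfd1l, which acts after Mthfd2 in mitochondria, had -0.36 after 18 h (adjusted p = 0.101) and -0.45 after 24 h (adjusted p = 0.0407). Pycrl, a paralog of Pycr1 (-0.09 and -0.17), Gpt (0.15 and 0.22) and Cbs (0.16 and -0.02), which makes the substrate of Cth, did not pass the adjusted p at either time, with or without the replicate block. With the block Shmt1 (adjusted p = 0.0141) and Mthfd1l (adjusted p = 0.0378) also passed after 18 h in limma. Thus none of these 7 was called by limma, edgeR or DESeq2, although 2 after 18 h and 3 after 24 h had an unadjusted p under 0.05, beside 25.4% and 28.2% of all genes, and their differences from the 10 enzymes were not tested.

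Ratios of each enzyme to such a counterpart were then taken in each library. Lower ratios after dox follow from the choice of the enzymes, so they are a description and support nothing. Shmt2 was above Shmt1 at 0 h in replicates 1 and 3, with ratios of 1.38, 0.888 and 1.899 in replicates 1, 2 and 3, and below it in all treated libraries, at 0.709±0.0326 after 18 h and 0.720±0.0102 after 24 h. The ratio of Gpt2 to Gpt was 4.43, 1.72 and 8.11 at 0 h, 0.934±0.156 after 18 h and 0.970±0.0941 after 24 h. Mthfd2 exceeded Mthfd2l 32.5±12.8 times at 0 h, 12.6±2.36 times after 18 h and 12.6±2.83 times after 24 h. Pycr1 had 0.335, 0.111 and 0.346 of the FPKM of Pycrl at 0 h, 0.114±0.0310 after 18 h and 0.123±0.0130 after 24 h, so that 0 h replicate 2 lay within the range of the treated libraries. Cth exceeded Cbs 6.77±1.37 times at 0 h and 2.54±0.433 times after 18 h. In each of these pairs replicate 2 had the lowest ratio at 0 h.

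**Figure D3:**
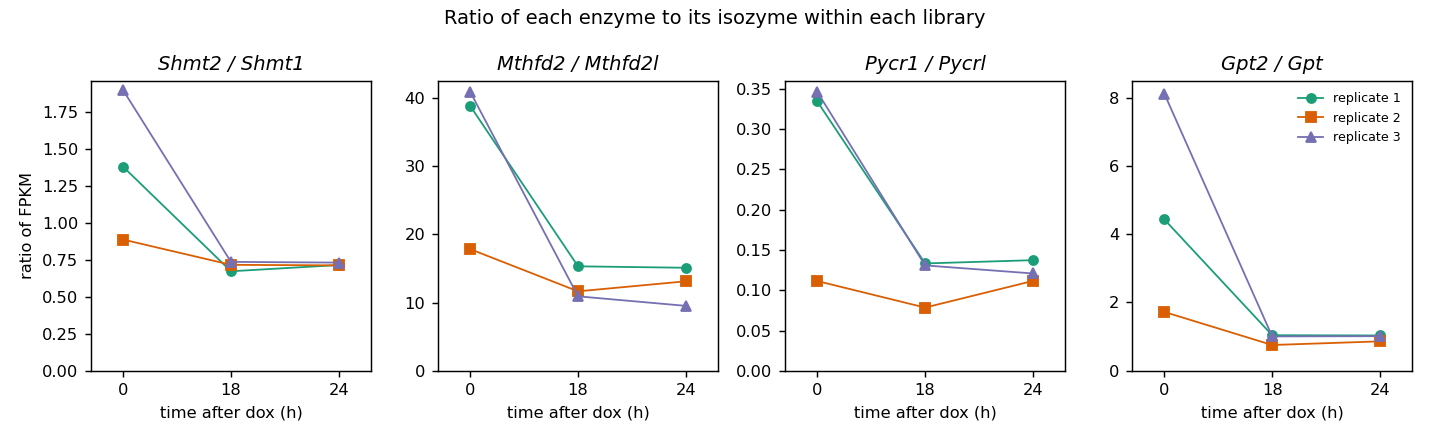
Ratio of the FPKM of 4 enzymes to that of a counterpart in the same library (vertical axes, each starting at 0) by time after dox in hours, with 1 line per replicate number. Gpt2 goes from 1.72 to 8.11 times Gpt at 0 h to near 1 after dox, and the 0 h value of replicate 2 is the lowest of the 0 h values in each panel. The enzymes were chosen with their differences from 0 h known, so the ratios are a description.

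A list of 80 other genes of amino acid and one-carbon metabolism, of which 73 could be tested, was described in the same way. At 18 h, 1 rose and 1 fell by the call rule, and after 24 h 1 rose and 2 fell, with a median log2 fold-change of -0.04 and -0.07. Over all genes tested, 1.33% were called higher and 0.724% lower after 18 h, and 2.07% and 0.836% after 24 h. Nothing is read from the counts of this list. The gene that rose was Serinc5, a membrane protein named for serine incorporation, with 13.0 FPKM at 0 h and 33.9 after 18 h (log2 fold-change 1.40, adjusted p = 0.000848 by limma) and 36.7 after 24 h (1.51, adjusted p = 0.000428). Bcat1, the cytosolic branched-chain aminotransferase, fell from 35.2 to 15.6 FPKM after 18 h (-1.15, adjusted p = 0.00105) and 14.2 after 24 h (-1.29, adjusted p = 0.000428). Aldh1l2, the mitochondrial formyltetrahydrofolate dehydrogenase, fell after 24 h from 0.580 to 0.0722 FPKM (-1.79, adjusted p = 0.0394 by limma), a call that was lost on leaving out 0 h replicate 1, 0 h replicate 3 or any treated library. Without 1 library its log2 fold-change ranged from -2.39 to -1.48 and its adjusted p from 0.00264 to 0.131, and in other settings, edgeR and DESeq2 included, they ranged from -3.02 (DESeq2) to -0.53 (pseudocount of 1 FPKM) and from 3.03e-07 to 0.0898. Serinc5 and Bcat1 were called at both times whichever library was left out, with 1.41 and 1.52 for Serinc5 and -1.30 and -1.44 for Bcat1 without 0 h replicate 2. After 18 h the adjusted p of Aldh1l2 was 0.0752 by limma, and edgeR and DESeq2 called it.

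With the adjusted p alone and no block, 3 of the 73 were lower after 18 h, beside 3.72% of all genes, and 13 after 24 h, beside 5.11%. In the same fit 1 was higher after 18 h (4.27% of all genes) and 2 after 24 h (6.52%). With the replicate block 14 were lower and 4 higher after 18 h, beside 10.7% and 10.8% of all genes, and 22 and 7 after 24 h, beside 12.5% and 13.6%. Among the 3 was Gldc, the glycine-cleaving decarboxylase, at -0.67 (adjusted p = 0.0452) and -0.77 (adjusted p = 0.0221). Got1, the cytosolic aspartate aminotransferase, had -0.31 (adjusted p = 0.0321) and -0.30 (adjusted p = 0.0293). At 24 h Got2, its mitochondrial form, had -0.31 (adjusted p = 0.0192), and Prodh, which degrades proline, -0.57 (adjusted p = 0.0193). Gfpt1, which uses glutamine to make hexosamine, was higher after 24 h at 0.41 (adjusted p = 0.0319). In 0 h replicate 2, the 67 genes of this list with a mean of at least 1 FPKM had a median of 104.9% of the mean of replicates 1 and 3, against 51.5% for the 10 enzymes.

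A list of 17 regulators also held genes downstream of Atf4, Trib3 and Chac1 among them. Of these 17 genes, limma called 3 lower at both times (Atf4, Trib3 and Chac1), beside 0.724% and 0.836% of all genes, and none higher. With the replicate block limma called 4 lower after 18 h, where Cebpb joined the others at -1.14 (adjusted p = 0.0267 in that limma fit), and 3 after 24 h. EdgeR and DESeq2 both called 5 lower after 18 h and 4 after 24 h, adding Ddit3 at both times and Cebpb after 18 h, and none higher. By limma 11 had an unadjusted p under 0.05 after 18 h, 1 of them higher, and 12 after 24 h, 2 of them higher, beside 25.4% and 28.2% of all genes. With the adjusted p alone 6 were lower after 18 h and 8 after 24 h, beside 3.72% and 5.11%, with 1 higher at each. Atf4 had 267.2, 159.9 and 258.5 FPKM in 0 h replicates 1, 2 and 3 and fell from a mean of 228.5 FPKM at 0 h to 92.4 after 18 h (-1.27, adjusted p = 0.00331 by limma) and 96.2 after 24 h (-1.21, adjusted p = 0.00302). Trib3, a pseudokinase gene that Atf4 activates, fell from 26.1 to 3.20 and 3.27 FPKM (-2.76 and -2.74, adjusted p = 0.0121 and 0.010). Trib3 was not called after 18 h without 18 h replicate 2 or without 18 h replicate 3, with a highest adjusted p of 0.0561, and Atf4 and Chac1 were called whichever library was left out. Chac1, a glutathione-degrading enzyme also downstream of Atf4, fell from 25.7 to 1.26 and 1.11 FPKM (-3.85 and -3.98, adjusted p = 0.00979 and 0.00666). Without 0 h replicate 2 the log2 fold-changes were -1.51 and -1.45 for Atf4, -3.43 and -3.41 for Trib3, and -4.78 and -4.91 for Chac1. When each library was left out in turn, the values smallest in size were -1.14 and -1.08, -2.38 and -2.36, and -3.375 and -3.505. Ppp1r15a, a phosphatase subunit that acts on eIF2, was lower by the adjusted p alone (-0.70 and -0.77, adjusted p = 0.00223 and 0.00109), and so was Myc (-0.41 and -0.65, adjusted p = 0.0147 and 0.00162). Eif2ak3, the eIF2 kinase of the endoplasmic reticulum, was higher by the adjusted p alone (0.53 and 0.57, adjusted p = 0.00847 and 0.00503). Atf4 is controlled largely at translation, which RNA levels do not measure. This list too was chosen with earlier results of these libraries known, so its p-values are a description.

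The genes whose profile over the 9 libraries was most like the mean standardised profile of the 10 were sought among 11883 others with a mean of at least 1 FPKM. They were Gars, Stc2, Chac1, Trib3, Cars, Mars, Yars, Aars, Nit2 and Nars, with Pearson's r of 0.989 to 0.997. The members' own r with that profile ran from 0.919 (Cth) and 0.947 (Pycr1) to 0.998 (Shmt2), with each member part of the profile. Gars, Cars, Mars, Yars, Aars and Nars encode tRNA synthetases for glycine, cysteine, methionine, tyrosine, alanine and asparagine, Stc2 a secreted glycoprotein and Nit2 an omega-amidase. These values share the 9 libraries and the contrasts by which the 10 were chosen, so they are a description and carry no p. Cars, for example, had 36.9, 20.2 and 37.6 FPKM in 0 h replicates 1, 2 and 3, 11.8, 11.2 and 10.9 after 18 h, and 12.7, 11.9 and 10.98 after 24 h. Chac1 had 35.4, 5.17 and 36.7 FPKM at 0 h and at most 1.66 in any treated library. In both genes 0 h replicate 2 was the lowest 0 h library and was above all treated libraries, as it was in 9 of the 10 enzymes.

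**Figure D4:**
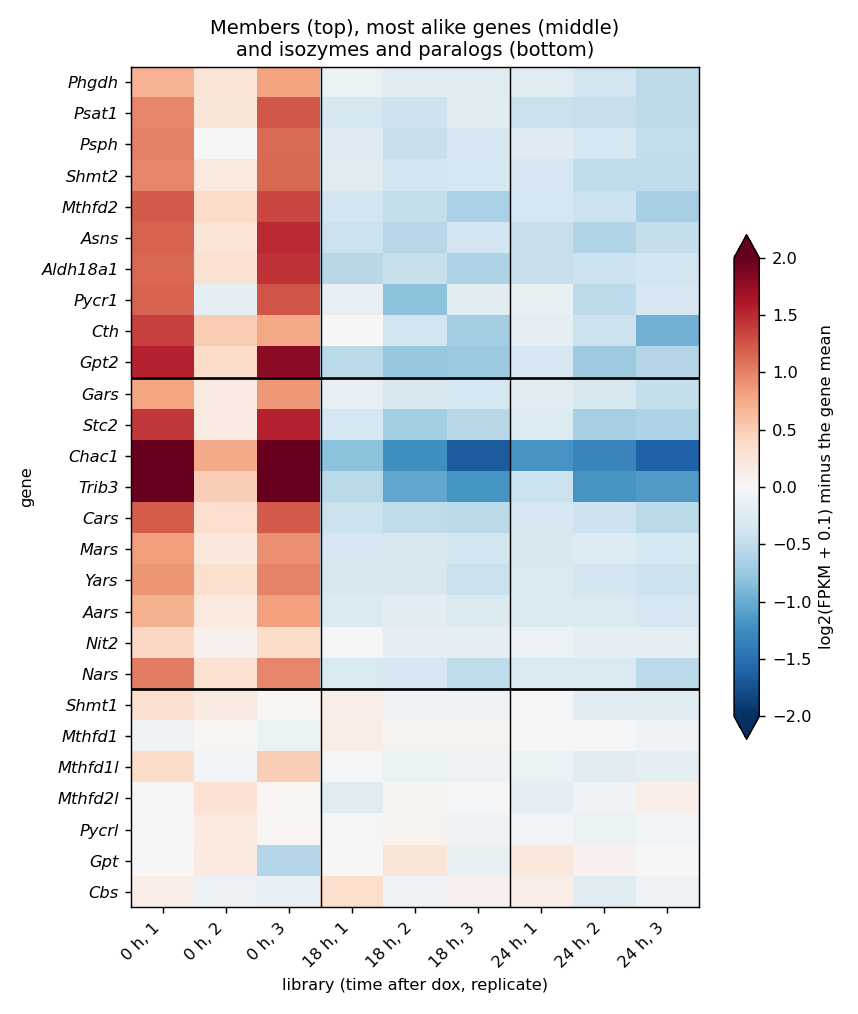
Expression of the 10 enzymes (top), the 10 genes most like them (middle) and 7 counterparts, which are isozymes or paralogs and Cbs (bottom), in each of the 9 libraries, as log2(FPKM+0.1) minus the mean of the gene, with red above and blue below the mean and colours capped at 2 and -2. In the top and middle blocks 0 h replicates 1 and 3 are redder than 0 h replicate 2, only faintly so for Nit2. For Cth, 0 h replicate 3 is close to replicate 2. The bottom block shows small differences throughout.

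Glycolysis, which supplies the precursor of serine, was described with 15 genes. None was called after 18 h or after 24 h by limma, edgeR or DESeq2. By limma 2 had an unadjusted p under 0.05 after 18 h and 5 after 24 h (25.4% and 28.2% of all genes), and with the adjusted p alone Aldoc was lower after 18 h (-0.66, adjusted p = 0.0459) and Hk2 after 24 h (-0.31, adjusted p = 0.0382). With the replicate block 3 were lower after 18 h and 6 after 24 h by the adjusted p, beside 10.7% and 12.5% of all genes. The median log2 fold-change of the list was -0.12 after 18 h and -0.22 after 24 h. In 0 h replicate 2 these genes had a median of 110.7% of the mean of replicates 1 and 3, and the replicate was lowest in 3 of the 15.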

How the data were processed

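Strand-specific polyadenylated RNA libraries from 9 samples were sequenced by the authors, who aligned reads to GRCm38 with STAR. The submitters' processing notes also name cutadapt 1.9 and edgeR 3.16.5. How strand and multiply aligned reads were counted is not given in the sources used here, so Psat1, Psph, Shmt2, Mthfd2, Aldh18a1 and Cth, which overlap other genes, are uncertain. The authors deposited FPKM values for 47729 genes, of which 19906 were 0 in all libraries, and for 19210 filtered genes a per-library signal that is CPM scaled to an effective library size. The fold-changes and p-values of the authors' own comparisons in that table were not used. Dividing by the value of 1 read gave whole reads for 100% of values (tolerance 0.01). No per-sample column was left unmatched.

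The main test was limma 3.58.1 in R 4.3.3 (lmFit, eBayes with trend) on log2(FPKM+0.1), with all 9 libraries and the 17951 genes whose mean was at least 0.1 FPKM, with Benjamini–Hochberg adjustment over all genes tested. Fold-changes on this scale understate those of low genes. P-values measure the spread between these libraries. Replicates of a time point differed by more than sampling noise. Deviations from the group means were correlated between libraries that share a number (mean r 0.325, 0.211 to 0.548 over 9 pairs), so the numbers were taken as pairs and a fit with the replicate block was made. Alternatives were other pseudocounts, filters, scalings, fold minimums and samples in the fit, each library left out, and edgeR 4.0.16 and DESeq2 1.42.0 on the recovered reads. EdgeR called 360 genes higher and 191 lower at 18 h and 501 and 216 at 24 h.

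The members and the lists were chosen with earlier results of these data known, so p-values of listed genes are a description. The text names all members, close isozymes and paralogs, Cbs, listed genes that passed the call rule and up to 3 more per direction with the smallest adjusted p, and the 10 genes most like the members. Ddit3, Cebpb, Odc1, Gclm, Cdo1, Bhmt2, Aldoc and Hk2 were named after their values were seen. Results on some genes are not reported here. Python 3.11.15, pandas 2.3.3 and matplotlib 3.10.9 were used for tables and figures. Coordinates are from GENCODE on GRCm38, and promoters from RefSeq.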

Additional observations from a re-analysis of the deposited data

How the results depend on the processing

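The direction of the 10 enzymes against 0 h held in all 22 alternatives, some of which cannot change it. The number called at 18 h, 8 with all libraries, was 3 with the fit limited to the 2 time points compared and 3 to 9 when a library was left out. Over all genes, the numbers called lower in these fits were 130, 75 and 65 to 176. With all libraries in limma no enzyme had a log2 fold-change of -2 or lower, so 0 were called with that minimum at 18 h and at 24 h, although Gpt2 reached -2.06 at 18 h by edgeR and DESeq2 and -2.34 without 0 h replicate 2. With the replicate block, and by edgeR and DESeq2, 9 were called at each time, the added gene being Pycr1, and the block changed the call of no other enzyme. Over all 17951 genes, limma with the block called 199 lower at 18 h and 210 at 24 h, against 130 and 150 without it. EdgeR called 191 and 216 of 15648 genes lower, and DESeq2 194 and 204 of 16230. Leaving out a library gave 7 to 10 calls among the enzymes at 24 h, beside 79 to 185 of all genes called lower. Of the 73 other genes of amino acid and one-carbon metabolism, the number lower at 18 h, 1 in the report, was 2 without 0 h replicate 2 and by edgeR with or without its filter or the replicate block and by DESeq2, 3 with no minimum fold-change and 0 with the minimum of 2. At 24 h, 2 in the report, it was 1 with a pseudocount of 1, with no filter, with a mean of at least 1 FPKM, with no intensity trend and with only the time points compared, 13 with no minimum fold-change, 0 with the minimum of 2, and 1 to 2 when a library was left out. The number higher was 0 at both times with the minimum of 2 and 2 at 24 h with no minimum fold-change. Over all genes, the share of calls that were higher at 24 h was 71.2%, and 59.1% after median centring, which lowered the median log2 fold-change of all genes to -0.07. The causes were not tested. The depth behind Aldh1l2 was 142, 28 and 129 reads in 0 h replicates 1, 2 and 3.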

Other observations

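The 14 listed genes of cysteine, methionine and glutathione metabolism other than Cth, of which 13 could be tested, were not called at 18 h or 24 h by limma, edgeR or DESeq2. By limma without the replicate block 0 passed the adjusted p alone at either time, and 3 at 18 h and 5 at 24 h had an unadjusted p under 0.05, beside 25.4% and 28.2% of all genes. With the block 1 was lower (Gclm) and 1 higher (Cdo1) by the adjusted p alone at 18 h, beside 10.7% and 10.8% of all genes. At 24 h 3 were lower and 2 higher, beside 12.5% and 13.6%. Their median log2 fold-change was -0.02 at 18 h and -0.06 at 24 h. Cth, at -1.24 and -1.42, lay below all genes of that list, of which the lowest was Gclm at 18 h (-0.29) and Bhmt2 at 24 h (-0.38). Since Cth was chosen with its differences from 0 h known, nothing is read from this order. Of the 13 other genes of proline, ornithine and arginine metabolism, 11 could be tested. None was called at either time by limma, edgeR or DESeq2. By limma 3 at 18 h and 4 at 24 h had an unadjusted p under 0.05, beside 25.4% and 28.2% of all genes. With the adjusted p alone and no block, 0 were lower at 18 h and 2 at 24 h, beside 3.72% and 5.11% of all genes. These 2 were Prodh (-0.57, adjusted p = 0.0193 by limma) and Odc1, the first enzyme of polyamine synthesis (-0.45, adjusted p = 0.0464). With the block 1 (Odc1) was lower and 0 higher by the adjusted p alone at 18 h, beside 10.7% and 10.8% of all genes. At 24 h 2 were lower and 2 higher, beside 12.5% and 13.6%. No explanation for these patterns was tested.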
